A study of Mus musculus with 3 samples.

Results

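The 10 genes described here slow or stop the cell cycle, and were examined for binding of the transcription factor Atoh7 in the embryonic mouse retina: the Gadd45 family (Gadd45a, Gadd45b and Gadd45g), the Btg/Tob family (Btg1, Btg2, Btg3 and Tob1) and the Cdkn1 family (Cdkn1a, Cdkn1b and Cdkn1c). Their peaks were selected by position, as those whose midpoint lay inside the gene or within 100 kb of it, and 19 of the 3668 deposited peaks met this rule. The genes themselves had been chosen with the peak list known, so peak numbers and distances are given as a description, with no test. The study used CUT&RUN, in which an antibody brings a nuclease to a DNA-bound protein and the cut fragments are sequenced, on C57Bl6/J retina at embryonic day 14. The labels describe 2 Atoh7 libraries and a control library of IgG, a non-specific antibody, and name no genetic alteration or treatment. The deposited values are 1 list of peak positions and widths on the mm10 build, so there is no value per library, no peak height and no IgG level to set beside a peak. Read depth is unknown, and neither replicate spread nor the tissue's identity could be checked from a list of positions.

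Atoh7 is a basic helix-loop-helix factor of retinal progenitors that are about to leave the cell cycle, and is needed for most retinal ganglion cells to form. Gadd45 proteins are small nuclear proteins, induced by stress and in differentiating cells, that bind cell cycle and repair proteins and activate the kinase Map3k4. Btg and Tob proteins share a domain that recruits the Cnot7 and Cnot8 deadenylases to messenger RNA and slows proliferation, and Btg2 is known as a marker of progenitors making neurogenic divisions. The Cdkn1 proteins bind cyclin-Cdk complexes and block them directly, and Cdkn1b and Cdkn1c are known to act in retinal progenitors leaving the cycle.

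The start sites of Gadd45a and Gadd45g were the only ones among the members that lay inside a peak. In each of these genes the whole stretch of 250 bases before the start also lay inside the peak. The sequences are shown because they are the member promoters covered by a peak, with Gadd45b, which had no peak at its start, as the third of its family. The start sites of Gpr19 and 2810454H06Rik, inside a peak near Cdkn1b, are described below without their sequences. The window of the long noncoding RNA gene Gm19497 is added because it is the start site that lay inside a peak near Btg2. Capitals mark CANNTG, the 6-base E-box to which basic helix-loop-helix dimers bind, and each line runs 5′ to 3′ towards the start site on the gene's own strand (RefSeq, GRCm38.p6, the assembly that mm10 names).

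Gadd45a, minus strand, chr6:67037408-67037657: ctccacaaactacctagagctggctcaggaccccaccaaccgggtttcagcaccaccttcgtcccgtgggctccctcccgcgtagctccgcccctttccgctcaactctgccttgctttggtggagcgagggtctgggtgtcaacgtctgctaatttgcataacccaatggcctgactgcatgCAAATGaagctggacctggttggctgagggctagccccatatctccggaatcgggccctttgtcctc
Gadd45g, plus strand, chr13:51846425-51846674: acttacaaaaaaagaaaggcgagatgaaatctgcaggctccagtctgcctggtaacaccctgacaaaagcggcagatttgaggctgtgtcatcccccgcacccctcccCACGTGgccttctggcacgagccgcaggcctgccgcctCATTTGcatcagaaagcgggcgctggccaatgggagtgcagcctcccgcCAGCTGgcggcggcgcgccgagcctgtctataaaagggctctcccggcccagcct
Gadd45b, plus strand, chr10:80929841-80930090: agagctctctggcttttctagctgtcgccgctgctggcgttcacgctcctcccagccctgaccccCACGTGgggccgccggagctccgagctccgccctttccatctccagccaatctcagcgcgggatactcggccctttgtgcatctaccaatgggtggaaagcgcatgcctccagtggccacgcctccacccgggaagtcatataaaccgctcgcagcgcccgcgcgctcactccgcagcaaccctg
Gm19497, minus strand, chr1:134060948-134061197: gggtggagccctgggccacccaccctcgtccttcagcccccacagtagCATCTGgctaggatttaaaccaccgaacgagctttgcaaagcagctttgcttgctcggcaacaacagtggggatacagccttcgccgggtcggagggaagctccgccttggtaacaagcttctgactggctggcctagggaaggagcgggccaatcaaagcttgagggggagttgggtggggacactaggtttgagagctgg

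The Gadd45 family held 11 of the 19 peaks, the Btg/Tob family 6 and the Cdkn1 family 2. The Btg/Tob family here means Btg1, Btg2, Btg3 and Tob1 only. Its other genes Tob2, with 4 peaks within 100 kb, and Btg4, with 1, were not counted and are described below. Neither was the nearest protein-coding gene to any of those peaks. Within the families the peaks were unevenly spread: Gadd45a and Gadd45g held 5 each and Btg2 held 4, while Gadd45b, Btg1, Tob1, Cdkn1b and Cdkn1c held 1 each and Btg3 and Cdkn1a held none. Thus 8 of 10 members had a peak within 100 kb, where 34.9% of the 21631 protein-coding genes did, and 31.7% of those no longer than Btg3, the longest member at 17.3 kb. At least 5 peaks were found for 0.601% of protein-coding genes (0.518% of those no longer than Btg3), and at least 4 for 1.88%. The lead of the Gadd45 family varied with the setting. Within 50 kb the Gadd45 and Btg/Tob families held 5 peaks each and the Cdkn1 family 2. Among the wider 50% of peaks the numbers were 6, 6 and 2. Within 10 kb they were 2, 1 and 0, and with the member as nearest protein-coding gene 10, 4 and 0. The median was 1 peak for the members and 0 for all protein-coding genes. None of the 19 peaks was centred inside a member gene, and the gene bodies are short, with a median of 4.71 kb against 17.3 kb for all protein-coding genes.

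**Figure D1:**
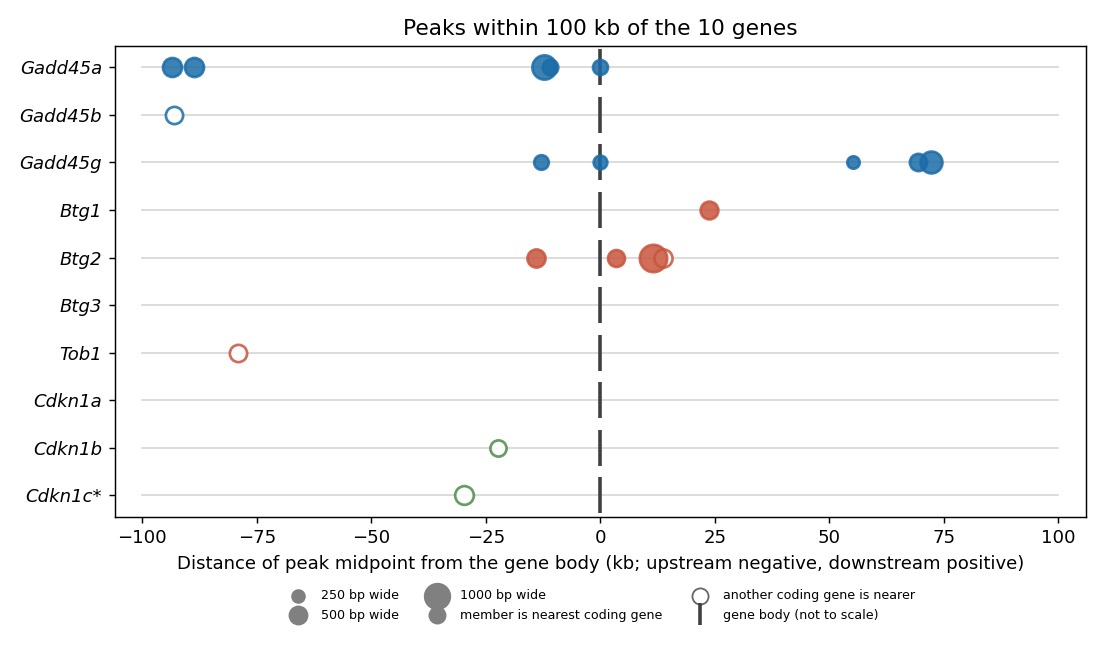
Each row is a gene and each circle is 1 peak, placed by the distance of its midpoint from the gene body in kb (upstream negative, downstream positive) and sized by its width. For Cdkn1c, marked with a star, the side follows the chromosome's coordinates instead. Filled circles are peaks for which the named gene is the nearest protein-coding gene; these occur for Gadd45a, Gadd45g, Btg1 and Btg2 alone.

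**Figure D2:**
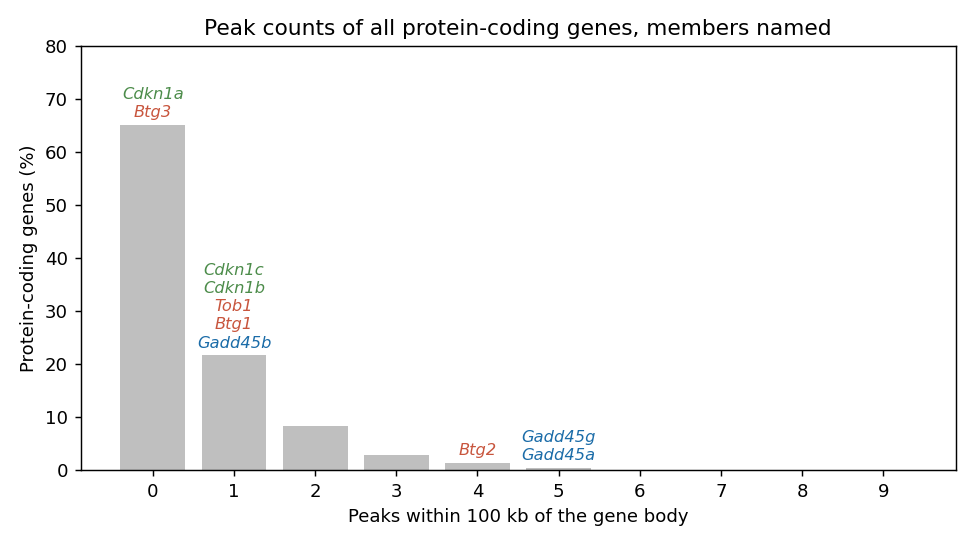
Bars give the percentage of the 21631 protein-coding genes with each number of peaks within 100 kb of the gene body, drawn up to 9 peaks, and the members are named above the bar for their own number. Most members stand over 0 or 1 peak, and Gadd45a and Gadd45g stand over 5.

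Gadd45a, which encodes the family member best known as a target of p53, lies on chromosome 6 (67035096 to 67037407, minus strand). All 5 of its peaks lay upstream. The first (67037381 to 67037722, 342 bp wide) covered the start site and was centred 144.5 bp before it. A pair followed at 67048122 to 67048489 (368 bp) and 67049121 to 67050020 (900 bp), centred 10.9 and 12.2 kb upstream and separated by 631 bp. The last pair, at 67125740 to 67126295 (556 bp) and 67130622 to 67131175 (554 bp), was centred 88.6 and 93.5 kb upstream, with a gap of 4.33 kb. Peaks at Gadd45a therefore lay at the promoter and in 2 upstream pairs, with 75.7 kb between the pairs that held no peak of the deposited list. A running number between those of the flanking peaks, 5627 and 5629, is absent from the list, so that a peak may have been removed from this stretch. The first 3 peaks were centred inside E230016M11Rik, a long noncoding RNA gene annotated over the same stretch, and the far pair lay outside all annotated genes. The annotated genes closest to the far pair were Gm29928 (22755.5 bp) and A430010J10Rik (26902.5 bp), neither of them protein-coding.

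Gadd45g, known as a gene of nascent neurons in vertebrate embryos, lies on chromosome 13 (51846675 to 51848475, plus strand). Its promoter peak (51846403 to 51846687, 285 bp) covered the start site and was centred 130 bp before it, an arrangement like that at Gadd45a. A further upstream peak (51833547 to 51833872, 326 bp) was centred 12.97 kb from the gene. The other 3 lay downstream, at 51903511 to 51903745 (235 bp), 51917766 to 51918220 (455 bp) and 51920448 to 51921178 (731 bp), centred 55.2, 69.5 and 72.3 kb from the gene end. Thus Gadd45a and Gadd45g each had a peak at the start, at least 1 peak 10 to 15 kb upstream and at least 2 peaks beyond 50 kb, but the far peaks lay on opposite sides of the gene. All 5 peaks of Gadd45g were centred outside annotated genes.

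Gadd45b, a member known for its induction by neuronal activity, had no peak at its promoter. Its 1 peak (chromosome 10, 80836797 to 80837251, 455 bp) was centred 93.1 kb upstream, inside Lingo3, a transmembrane protein gene. There were 14 protein-coding genes within 100 kb of that peak midpoint, Gadd45b among them. This peak and the farthest one of Gadd45a were the members' peaks closest to the 100 kb limit, and the next ones beyond it were also near Gadd45b, at 103.7 kb (nearest gene Oaz1) and 105 kb (inside Slc39a3).

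Of the protein-coding genes in the promoter table, 2.59% had a start site inside a peak, and 1.28% had the 250 bases before a start wholly inside one, as Gadd45a and Gadd45g did. The letters of their promoters differed. The window of Gadd45g held 3 E-boxes, namely CACGTG, then CATTTG and then CAGCTG, beginning 142, 104 and 55 bases before the start and centred 9.5, 28.5 and 77.5 bp from the peak midpoint. That of Gadd45a held 1, CAAATG, beginning 67 bases before the start and 80 bp from the peak midpoint, and that of Gadd45b also held 1, CACGTG. At least 1 E-box of any kind occurred in 66.2% of the 32619 windows of the table and at least 3 occurred in 12.2%, so that 1 E-box in such a window is common. In the 276 windows wholly inside a peak these shares were 64.1 and 10.9%.

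The 4 kinds of E-box that were searched, on both strands, were CAGCTG, then CAGATG with its reverse complement CATCTG, then CATATG, and last CACCTG with its reverse complement CAGGTG. Among the Gadd45, Btg, Tob and Cdkn1 genes, 9 of 10 are in the table (Cdkn1c is not), and CAGCTG was found at Gadd45g only. The last kind was found, as CAGGTG, at Cdkn1a only, which had no peak within 100 kb. The remaining kinds were found in no member window. Of E-boxes outside the searched kinds, Btg3, also without a peak within 100 kb, held CACATG and also CAAGTG. The windows of Btg1, Btg2, Tob1 and Cdkn1b held no E-box. CAGCTG occurred in 13.1% of all windows and in 27.9% of the 276 windows that lay wholly inside a peak. For CAGATG the shares were 14.4 and 16.3%, for CATATG 3.36 and 1.81%, and for CACCTG 17.3 and 16.3%. The windows inside peaks were also richer in G and C (median 62.8% against 52.4%), and the part of base composition in these shares was not tested. The Gm19497 window held a CATCTG centred 6 bp from the midpoint of its peak. By contrast, a Gpr19 window that lay wholly inside the peak near Cdkn1b held no CANNTG. Another Gpr19 window, with 247 bases inside that peak, held CAGGTG. The window of 2810454H06Rik, with 132 bases inside it, held CAAGTG and CACCTG.

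A further likeness between the Gadd45a and Gadd45g windows was noticed after the letters had been read. Each holds ATGCAAAT, the octamer known as a site of POU-domain factors, or its reverse complement ATTTGCAT: 2 at Gadd45a, beginning 97 and 70 bases before the start, and 1 at Gadd45g, beginning 103 bases before it. The octamer occurred in 1.61% of all windows and in 2.17% of those inside a peak, and in no window of the other 7 members in the table. 1 octamer at each gene shares 5 bases with an E-box, since CAAATG and CATTTG are the same letters on opposite strands. That E-box occurred in 12.1% of all windows and 8.7% of those inside a peak, and CACGTG in 6.06 and 8.33%.

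Btg2, the antiproliferative gene of neurogenic progenitors (chromosome 1, 134074865 to 134079155, minus strand), differed from Gadd45a and Gadd45g in having no peak at its start. Its 4 peaks all lay within 15 kb of the gene. The closest (134071237 to 134071675, 439 bp) was centred 3.41 kb downstream of the gene end, which is 7.7 kb from the start. The widest (134062770 to 134063916, 1147 bp) was centred 11.5 kb downstream, and the next (134060891 to 134061390, 500 bp) 13.7 kb downstream, where it covered the start of Gm19497. The only upstream peak (134092961 to 134093462, 502 bp) was centred 14.1 kb from the gene, inside the long noncoding RNA gene Gm32039. The peak at Gm19497 was nearer to Fmod, an extracellular matrix gene (12.9 kb), than to Btg2, and the other 3 had Btg2 as the nearest protein-coding gene.

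The other Btg/Tob genes among the 10 members, Btg1, Tob1 and Btg3, had few peaks. Outside the 10, Tob2 had 4 peaks within 100 kb, as described below. Btg1, an antiproliferative gene close in sequence to Btg2, had 1 peak on chromosome 10 (96646380 to 96646862, 483 bp), centred 23.8 kb downstream of the gene end and outside all annotated genes. Tob1, which joins deadenylases to poly(A)-binding protein, had 1 peak on chromosome 11 (94130618 to 94131074, 457 bp), centred 79.0 kb upstream and only 4.75 kb from Spag9, a scaffold protein gene of kinase signalling. Btg3 (chromosome 16, 78359860 to 78377181) had its closest peak 738 kb away, and 78.9% of protein-coding genes had a closer one.

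The Cdkn1 family had the sparsest peaks, and in no case was a member the nearest protein-coding gene to a peak. Cdkn1b, an inhibitor with a known part in cell cycle exit (chromosome 6, 134920401 to 134925525, plus strand), had 1 peak at 134897829 to 134898229 (401 bp), centred 22.4 kb upstream. That peak lay at the start of another gene: it covered a start site of Gpr19, an orphan receptor gene, centred 104 bp away, and that of the long noncoding RNA gene 2810454H06Rik, centred 68 bp away. Cdkn1c, an imprinted inhibitor gene (chromosome 7, 143458339 to 143461059), had 1 peak at 143428325 to 143428859 (535 bp), centred 29.7 kb from the gene and 1.54 kb from the end of Kcnq1, a potassium channel gene of the same imprinted cluster. Cdkn1a, the inhibitor best known as a p53 target (chromosome 17, 29090979 to 29100722), had no peak in its window, and the closest was 149.7 kb away, inside Pxt1.

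**Figure D3:**
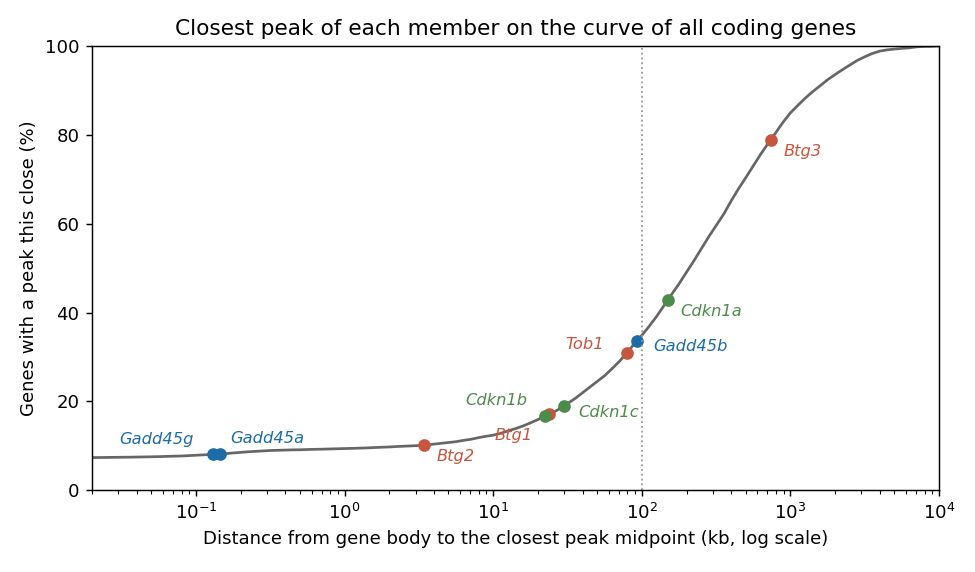
The grey curve gives the percentage of protein-coding genes whose closest peak midpoint lies within the distance on the x axis (kb, log scale), and each coloured point is a member placed on it at its own distance. The dotted line is 100 kb. Gadd45g and Gadd45a lie at 130 and 144.5 bp, Btg2 at 3.41 kb, and Btg3 farthest right at 738 kb.

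Ordered by the closest peak, the members ran from Gadd45g and Gadd45a, through Btg2, Cdkn1b, Btg1, Cdkn1c, Tob1 and Gadd45b, to Cdkn1a and Btg3. A closer peak was found for 8.05% of protein-coding genes in the case of Gadd45g, 8.17% for Gadd45a and 10.2% for Btg2. For Cdkn1b, Btg1 and Cdkn1c that share was 16.7, 17.1 and 18.9%, and for Tob1, Gadd45b and Cdkn1a it was 30.8, 33.7 and 42.8%. The median distance was 26.8 kb for the members and 208 kb for all protein-coding genes. A peak within 10 kb was present for 3 members and 12.4% of protein-coding genes, a peak within 50 kb for 6 members and 24.4%, and a peak within 200 kb for 9 members and 49.1%.

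Not every peak near a member had that member as its nearest gene. For 14 of the 19 peaks the member was the nearest protein-coding gene, and these belonged to 4 members, where 11.1% of protein-coding genes were nearest to at least 1 peak. Gadd45a and Gadd45g were each the nearest protein-coding gene to all 5 of their peaks, a number reached by 0.111% of protein-coding genes. Btg2 was the nearest to 3, reached by 0.772%. The windows of these 4 members held few other protein-coding genes: none at Btg1, 1 at Gadd45a (Gng12), 1 at Gadd45g (Sema4d) and 2 at Btg2 (Chit1 and Fmod). The windows of Tob1, Cdkn1a and Cdkn1b held 4 each, that of Cdkn1c 5 and that of Gadd45b 9, while Btg3, with no peak, had 1 (Cxadr). The part of gene density in the assignment of peaks was not tested.

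The annotation under the 19 peaks was set beside that of the whole list. Centres inside a protein-coding gene numbered 2 (10.5%), in Lingo3 and Gpr19, against 53.7% of all peaks on chromosomes 1 to 19 and X. A long noncoding RNA gene held the centre of 5 (26.3%, against 11.6%), of which 3 were in E230016M11Rik. A start site in the table lay inside 4 of them (21.1%, against 13.1%): those of Gadd45a, Gadd45g, Gm19497, and Gpr19 with 2810454H06Rik. More than 50 kb from any protein-coding gene lay 5 (26.3%, against 17.9%), the 2 far peaks of Gadd45a and the 3 of Gadd45g. Since the rule took windows around short genes and 10 of the 19 peaks came from Gadd45a and Gadd45g, these shares describe the loci and were not tested.

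**Figure D4:**
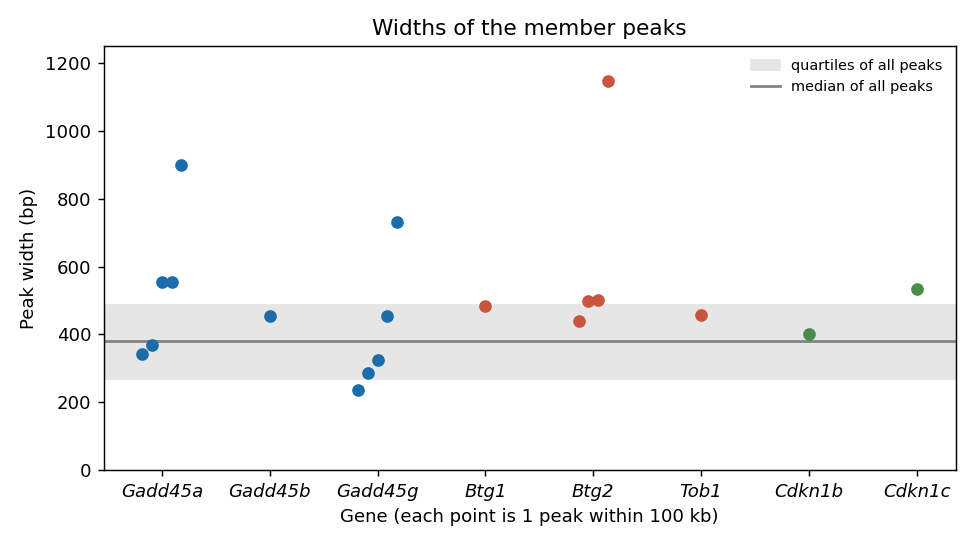
Each point is the width in bp of 1 peak within 100 kb of the named gene, with the quartiles (grey band, 269 to 486 bp) and the median (line, 381 bp) of all 3668 peaks. Btg2, Gadd45a and Gadd45g each have 1 peak far above the band, at 1147, 900 and 731 bp.

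Peak width was known when the members were proposed and is also a description. The median was 457 bp for the 19 peaks and 381 bp for the whole list (quartiles 269 and 486 bp), and 8 of the 19 (42.1%) were above the upper quartile, as were 24.9% of all peaks. By family the medians were 455 bp for Gadd45, 491.5 bp for Btg/Tob and 468 bp for Cdkn1, which lay closer to each other than the peaks within a family did (235 to 900 bp in Gadd45). The widest peak of Btg2 was wider than 99.6% of the list, that of Gadd45a wider than 98.7% and that of Gadd45g wider than 95.7%. In each case it was a peak away from the gene, and the promoter peaks of Gadd45a and Gadd45g were below the list's median. Width is not a measure of how much Atoh7 was bound.

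The names of the peaks carry running numbers along the genome, of which 51.1% are present in the list. At Btg2 the numbers 285 to 288 were all present. At Gadd45a 5 of the 6 numbers from 5625 to 5630 were present, and at Gadd45g 5 of the 8 from 1703 to 1710. The first and last of each run are present by construction. How the others were removed is not given in these sources.

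Genes related to the 3 families, as further family members, partners or other regulators of the cell cycle, held peaks about as often as other genes. Of 51 other genes in 6 lists, 19 (37.3%) had a peak within 100 kb, near the 34.9% of all protein-coding genes, and none had 5 or more. Among the other Btg/Tob genes and the deadenylase complex, 3 of 10 did: Cnot6l, a catalytic deadenylase, at 117.5 bp, Tob2 with 4 peaks, the closest at 13.8 kb and nearer to Phf5a, and Btg4 at 84.9 kb. Gadd45 partners had a peak in 4 of 9, with Map3k4, the kinase that Gadd45 proteins activate, holding one inside the gene, its downstream kinase Mapk14 one at 98.5 bp that lay nearer to Slc26a8, and Tet3, a 5-methylcytosine oxidase, one at 36.3 kb. The fourth was Tdg, a DNA glycosylase (48.6 kb).

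Among INK4 inhibitors and pocket proteins, 3 of 7 had a peak. That of Cdkn2d, a Cdk4 and Cdk6 inhibitor, was inside the gene (177 bp wide, below the lower quartile of all peaks). Those of Rbl1 and Cdkn2c were at 76.4 and 96.2 kb. The cyclins and kinases that Cdkn1 proteins hold had a peak in 4 of 9, inside Ccnd3 and Cdk6, at 13.3 kb for Ccna2 and at 36.8 kb for Ccne1. Of p53 and its arrest targets 3 of 10 did, with a peak inside Plk3, a stress-responsive kinase gene, at 5.73 kb from Ppm1d and at 49.7 kb from Mdm4. Of 6 protein-stability genes listed beside Cdkn1b, 2 had a peak, inside Fbxw7 and 213.5 bp from Cdc34. Most of these genes had 1 peak, and the largest number was the 4 of Tob2, none of which had Tob2 as its nearest gene. Mapk14, Btg4, Tet3, Tdg, Rbl1, Cdkn2c, Ccna2, Ppm1d and Mdm4 were likewise the nearest protein-coding gene to none of their peaks.

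Genes with a layout of peaks like that of Gadd45a and Gadd45g were sought by counting peaks in 5 distance bins: inside the gene, under 1 kb, 1 to 10 kb, 10 to 50 kb and 50 to 100 kb. The layout of Gadd45a (0, 1, 0, 2 and 2 peaks) was shared exactly by 2 genes, Stip1 and Cdk5rap3, and Kcnh2 came next among 50 genes that differed by 1 peak. No gene had the layout of Gadd45g (0, 1, 0, 1 and 3 peaks), and 36 differed by 1 peak, of which Mrpl2, Mlxip and Xpo6 were closest in total peak width. The measure compares positions in 1 list of peaks and covers no samples.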

How the data were processed

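The series has 2 Atoh7 CUT&RUN libraries and 1 IgG library of embryonic day 14 mouse retina. The submitters' processing notes name MACS2 2.2.7.1, Bowtie2 2.3.5, Picard 2.0.1, bedtools and SAMtools, with the mm10 build. The order and settings of these tools, and whether peaks were called per library, are not given in the sources used here. The deposited list gives position and width for 3668 peaks, per the file headers. Positions were read as counted from 1, since every width equals end minus start plus 1. Every peak name begins with Atoh7_R1.

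Gene positions were read from RefSeq's annotation of GRCm38.p6, and promoter windows (250 bases before each start) from another RefSeq table that holds 9 of the 10 members. Distances ran from the peak midpoint to the gene body. Gene-based values used the 3662 peaks on chromosomes 1 to 19 and X. All members are named, and in each pathway list up to 3 genes with the closest peaks. Tdg and Ccne1 were named after their values were seen, as were the octamer, CACGTG and CAAATG. The members and lists were chosen with earlier results of these data known. No test was run, since 1 list has no replicates. Distance calculations were tested on simulated data. Alternatives were windows of 10, 50 and 200 kb, the nearest gene only, the wider 50% of peaks, any overlap, and distance to the start. Software was pandas 2.3.3, numpy 2.4.6 and matplotlib 3.10.9 under Python 3.11.15.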

Additional observations from a re-analysis of the deposited data

How the results depend on the processing

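Of 40 alternative values, 29 stayed within 1.5 times the reported one, and 11 did not. The number of members with a peak was 3 within 10 kb and 4 when a member had to be the nearest protein-coding gene. The Gadd45 family held 5 peaks within 50 kb, 2 within 10 kb and 6 among the wider 50% of peaks. The Btg/Tob family held 1 peak within 10 kb and 11 within 200 kb, and the Cdkn1 family 0 within 10 kb, 0 when a member had to be nearest and 6 within 200 kb. Hence Gadd45 and Btg/Tob are level at 5 peaks within 50 kb, and at 6 among the wider peaks. When a member had to be nearest, Gadd45 held 10 and Btg/Tob 4. The closest peak of Btg2 was 7.7 kb from the start site, against 3.41 kb from the gene. Counting any overlap of 1 bp changed no count. A wider window takes in more peaks by construction, and the cause of the other changes was not tested. Without a genome sequence the E-boxes of whole peaks and of their central 200 bp were not counted. Replicates could not be left out, and no paired analysis was possible because the list holds no value per library. Read depth is unknown, so it could not weight any value.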
